A study of Mus spretus with 19 samples.

Results

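The immediate early genes described here are Fos, Jun, Junb, Egr1, Nr4a1, Atf3, Myc, Ier2, Dusp1 and Zfp36. They were found by gene symbol in the annotation of an array from the reference site and followed on every array through the probe. All 10 were measured, out of 16346 genes and transcripts tested. The study asked how the livers of free-living male Algerian mice (Mus spretus) from polluted places differ from those of an unpolluted one. Polluted places were the phosphogypsum stacks (PS) and 3 points on the Domingo Rubio stream, in its lower (DR1), medium (DR4) and upper course (DR6). The unpolluted site was the Santa Olalla lagoon (SOL). The labels give no treatment, genotype or age for the animals, and each site is represented by 1 pool of liver RNA from 9 mice. Each pool was labelled with the dye Cy3 and hybridised to 4 one-colour Agilent mouse arrays, of which 3 are used for DR6, giving 19 arrays. The arrays of a site repeat the same pool, so the tests below measure technical spread only and say nothing of how individual mice vary. All arrays of 1 site were also on 1 slide, scanned together, and effects of site and of slide cannot be told apart.

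Immediate early genes are transcribed within minutes of a signal, from proteins already present in the cell and with no need for new protein synthesis. Growth factors, cytokines, handling stress and injury all induce them in liver, and they are known for their early rise after partial hepatectomy. Most encode transcription factors, among them the AP-1 subunits of the FOS, JUN and ATF families, the zinc finger factor EGR1, the nuclear receptor NR4A1 and MYC. Others close the response again: DUSP1 removes the activating phosphates from MAP kinases, and ZFP36 binds AU-rich elements of messenger RNAs and speeds their decay, including that of several early transcripts.

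The level of a gene on these arrays is the brightness of short probes, so the stretches that were hybridised are shown first. Each probe has 60 bases, and 30 of them are printed, 5′ to 3′ on the strand of the transcript, as the deposited array files give them. The probes were designed for Mus musculus, and whether they match Mus spretus was not tested. Capitals mark the motif ATTTA, the core of an AU-rich element, or in Junb the 22 bases that both of its probes share. Positions are those the array files give on the mm8 build, and the exon or UTR in which each probe lies is not given here.
Fos, chr12:86366053-86366112, plus strand, probe bases 1 to 30: ggactttattttccagtagatagaaatcaa
Jun, chr4:94541191-94541250, minus strand, probe bases 6 to 35: aatcataggaaagATTTAgtaattagctgt
Junb, chr8:87867049-87867108, minus strand, brighter probe, probe bases 1 to 30: TTCGTGTCTAAAGTCTATTTTAagatgtgt
Junb, chr8:87867087-87867146, minus strand, other probe, probe bases 31 to 60: acacgcacTTCGTGTCTAAAGTCTATTTTA
Atf3, chr1:192871283-192871342, minus strand, probe bases 1 to 30: cacagcagctttgtccttggctacaaactg
Nr4a1, chr15:101102674-101102733, plus strand, probe bases 1 to 30: ctcttccgctctccttccatgtgtacataa
Myc, chr15:61819627-61819687, plus strand, brightest probe, probe bases 1 to 30: gttccttctgacagaactgatgcgctggaa
Myc, chr15:61819036-61819095, plus strand, probe nearest the 5′ end, probe bases 1 to 30: aaattgatgtggtgtctgtggagaagaggc
Dusp1, chr17:26233451-26233508, minus strand, probe bases 10 to 39: agtttttacctttATTTAtttttgtgtagg
Zfp36, chr7:28085873-28085932, minus strand, brighter probe, probe bases 1 to 30: tggtctcctggaatcttaagtgctgtgaag
Zfp36, chr7:28085681-28085740, minus strand, other probe, probe bases 14 to 43: ATTTAttgtattaagattttatagtATTTA
The probes of Egr1, both probes of Ier2 and 1 further Myc probe are not printed. ATTTA stands in 4 of the 15 probes of the 10 genes, those of Jun, Egr1 and Dusp1 and the dimmer one of Zfp36, against 9.16% of all 41174 probes on the array. On the other strand the same letters read TAAAT, which 1 of the 15 probes holds, against 9.26% of all probes. A match is a description of the probe letters and not a functional site.

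The 10 genes were covered by 15 probes and 42 spots per array, because the probes of Fos, Jun and Myc are printed in 10 copies each. Their brightest probes were well above background on all 19 arrays and saturated on none. A level is given as log2 of the processed spot signal minus the 75th percentile of the array, so 0 is the signal of the spot at that percentile, and levels of different genes are not comparable because they come from different probes. A gene was called when limma gave an adjusted p under 0.05 and the site means differed at least 2-fold. Errors after ± are the standard error (SE) of the fitted difference unless SD is named. The correlation across genes was 0.980 to 0.997 between arrays of 1 site and 0.952 to 0.984 between sites. In pooled liver tissue, fewer cells of a type and less RNA per cell cannot be told apart.

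Between 5 and 6 of the 10 immediate early genes rose over the lagoon at each of the 3 stream sites, and 0 were called at the phosphogypsum stacks. At DR1, 5 of the 10 genes rose over SOL and none fell (Fos, Egr1, Nr4a1, Myc and Dusp1), against a background of 3.53% of all genes tested that were called higher there. At DR4, 5 of 10 rose (Fos, Nr4a1, Atf3, Myc and Dusp1), against 5.43% of all genes. At DR6, 6 of 10 rose (Fos, Jun, Nr4a1, Atf3, Myc and Dusp1), against 4.67% of all genes. At PS, 0 of 10 were called against SOL in either direction, where 4.42% of all genes were called. The median log2 difference from SOL over the 10 genes was 1.05 at DR1, 1.00 at DR4, 1.49 at DR6 and −0.06 at PS, and over all genes tested it was 0.01, −0.05, −0.00 and −0.01 at the same sites. Without the 2-fold limit, adjusted p was under 0.05 for 10 of 10 genes at DR1, 9 at DR4, 8 at DR6 and 5 at PS, against 47.7%, 54.95%, 43.9% and 32.8% of all genes at the same sites. Some of these lay below SOL, such as Jun at DR1 and Egr1 at DR4. All these counts use the brightest probe of each gene. By it, Fos, Nr4a1, Myc and Dusp1 were called at all 3 stream sites, while Junb, Ier2 and Zfp36 were called against SOL at none. Other probes of Junb, Myc and Zfp36 gave other calls, as given below. The 4 comparisons share the SOL arrays.

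**Figure D1:**
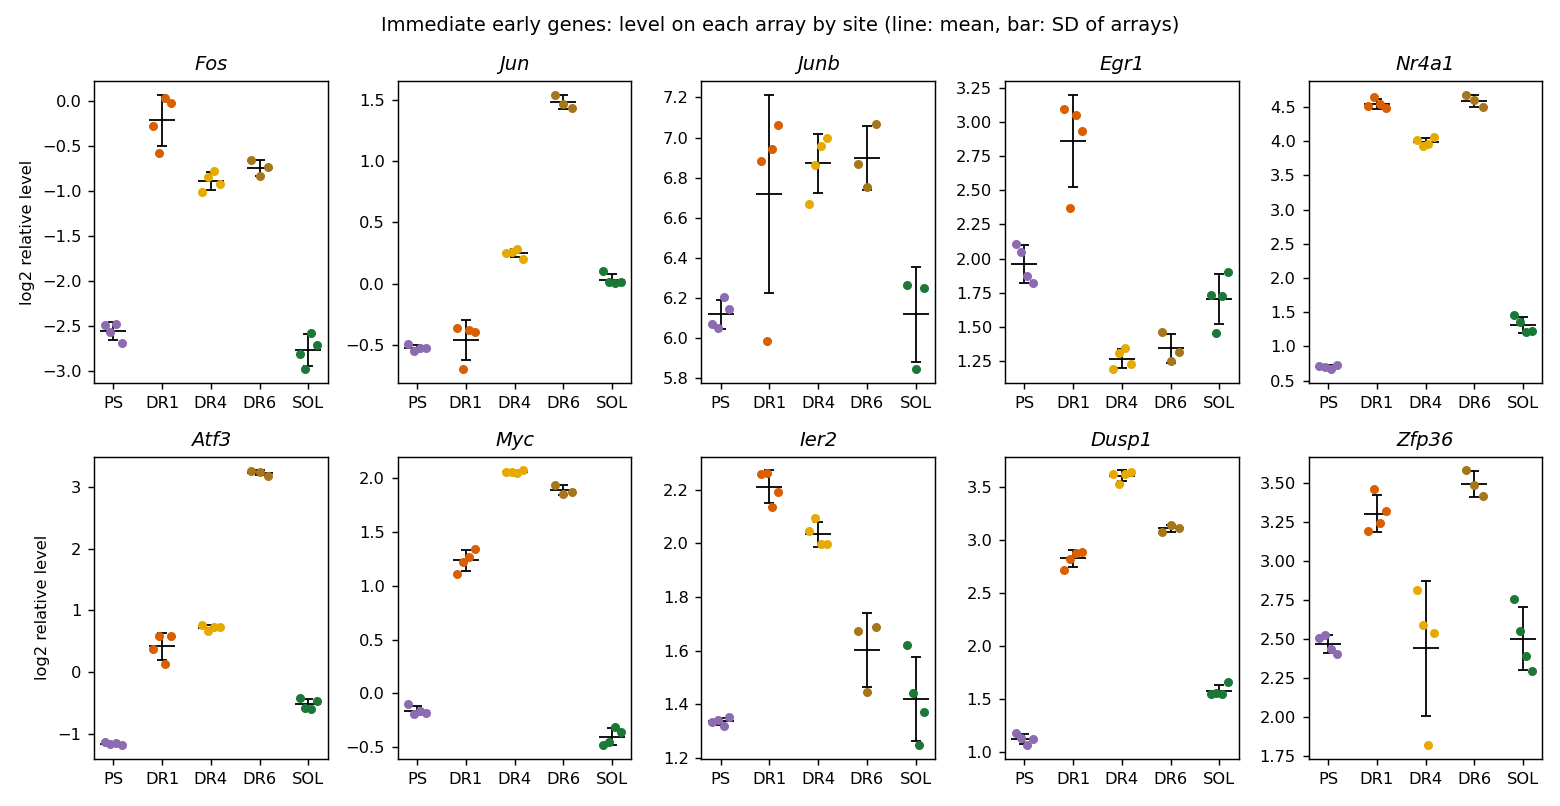
Level of each of the 10 genes on each array (y axis, log2 relative level; each panel has its own scale) at PS, DR1, DR4, DR6 and SOL (x axis); points are arrays, the line is the mean of a site and the bar its SD. Nr4a1, Myc and Dusp1 lay above every PS and SOL array on all stream arrays, Atf3 stood highest at DR6, and Egr1 stood high at DR1 alone.

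Fos, which dimerises with JUN proteins to form AP-1, had the widest rise among the AP-1 subunits at DR1. Its level was −0.29, −0.58, 0.034 and −0.030 on the DR1 arrays, −1.02, −0.85, −0.79 and −0.93 at DR4, and −0.66, −0.84 and −0.73 at DR6, against −2.80, −2.98, −2.57 and −2.70 at SOL. The PS arrays read −2.49, −2.56, −2.47 and −2.68. Every stream array lay above every PS and SOL array, whereas PS and SOL overlapped. Fos was higher than at SOL by 2.55 ± 0.12 at DR1 (5.85-fold, adjusted p = 3.94e-11), by 1.87 ± 0.12 at DR4 (adjusted p = 7.12e-10) and by 2.02 ± 0.13 at DR6 (adjusted p = 1.86e-09), and the PS difference was 0.21 ± 0.12 (adjusted p = 0.177). The order was DR1, then DR6 and DR4, which did not differ beyond their spread, then PS and SOL, which did not either. The 10 copies of the Fos probe on an array had a median SD of 0.12 on the log2 scale. The Fos spots were dim: their mean intensity was 1.71 to 1.94 times the local background at PS and 1.49 to 1.90 times at SOL, against 3.00 to 7.57 times at the stream sites. With normexp background correction the difference from SOL was 1.21 at DR1, still called, and 0.87 at DR4 and 0.84 at DR6, under the 2-fold limit. That setting also adds an offset of 50 to every value, which by arithmetic shrinks fold differences of dim spots. The processed Fos signal ran from 11.7 to 314.9. The parts of the offset and of the background correction were not tested.

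Jun, the partner of FOS in AP-1, did not follow it. Its level was 1.54, 1.47 and 1.43 at DR6, against 0.10, 0.011, 0.0063 and 0.016 at SOL, a difference of 1.45 ± 0.070 (2.72-fold, adjusted p = 7.43e-11). The other polluted sites read 0.25, 0.26, 0.28 and 0.20 at DR4, −0.36, −0.70, −0.37 and −0.39 at DR1 and −0.49, −0.55, −0.52 and −0.53 at PS. The DR6 arrays lay above all others, and all DR1 and PS arrays lay below all SOL arrays. The differences from SOL were 0.21 ± 0.065 at DR4 (adjusted p = 0.0101), −0.49 ± 0.065 at DR1 (adjusted p = 1.04e-05) and −0.56 ± 0.065 at PS (adjusted p = 4.52e-06), all under the 2-fold limit. DR1 and PS, the lowest sites, did not differ beyond their spread (adjusted p = 0.428). The site with the highest Fos was thus 1 of the 2 with the lowest Jun.

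Junb encodes a further JUN protein, often a weaker activator than JUN. Its brighter probe read 6.88, 5.98, 6.94 and 7.06 at DR1, 6.67, 6.86, 6.96 and 7.0 at DR4 and 6.87, 6.75 and 7.07 at DR6, against 6.26, 5.84 and 6.25 at SOL, where the spot of 1 array was an outlier and left out. At PS it read 6.07, 6.05, 6.21 and 6.14. Junb stood above SOL by 0.60 ± 0.20 at DR1 (adjusted p = 0.0205), 0.75 ± 0.20 at DR4 (adjusted p = 0.00424) and 0.78 ± 0.21 at DR6 (adjusted p = 0.00745), all under the 2-fold limit, and by 0.00 ± 0.20 at PS (adjusted p = 0.999). On DR1 array 2 Junb lay within the range of SOL, so the DR1 and SOL arrays overlapped. With this probe the 3 stream sites did not differ from each other beyond their spread, nor did PS and SOL. The other Junb probe did separate DR6 from DR1 and DR4, as given below.

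Atf3, a stress-induced factor of the ATF family that pairs with JUN proteins and represses many of its targets, had the widest range of all 10 genes. Its level was 3.26, 3.24 and 3.18 at DR6, 0.76, 0.67, 0.73 and 0.74 at DR4 and 0.37, 0.59, 0.13 and 0.59 at DR1, against −0.42, −0.58, −0.60 and −0.47 at SOL. At PS it was −1.12, −1.17, −1.15 and −1.18. No 2 sites overlapped. Atf3 rose at DR6 by 3.74 ± 0.087 (13.4-fold, adjusted p = 7.56e-15) and at DR4 by 1.24 ± 0.081 (adjusted p = 1.16e-09). At DR1 the difference was 0.94 ± 0.081 (adjusted p = 8.58e-08) and at PS −0.64 ± 0.081 (adjusted p = 1.14e-05), both under the 2-fold limit. Leaving out DR1 replicate 3 brought the DR1 value to 1.03, past the limit, and normexp correction brought the DR4 value to 0.82, below it.

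**Figure D2:**
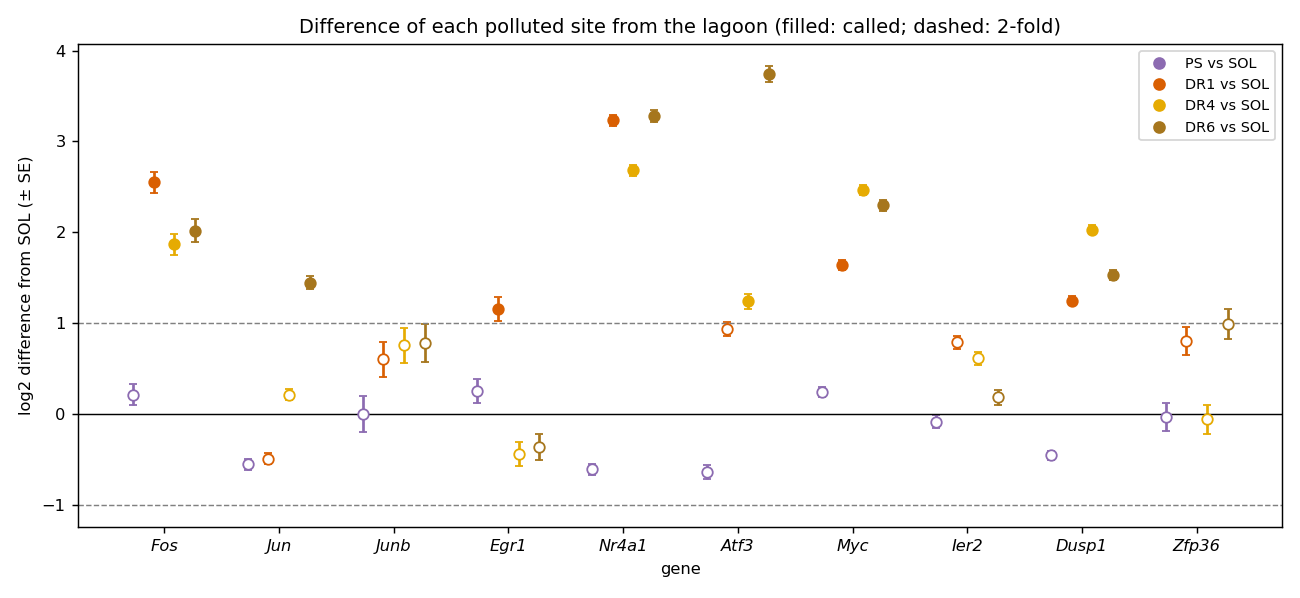
Difference of PS, DR1, DR4 and DR6 from SOL for each gene (y axis, log2 difference with its SE; x axis, gene); filled points were called, dashed lines mark a 2-fold difference. Nr4a1 at the stream sites and Atf3 at DR6 stand highest, and no PS point is filled.

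Egr1, a zinc finger factor induced by growth factors through serum response factor, differed from the others in where it was high. It lies on chromosome 18. Its level was 3.1, 2.37, 3.05 and 2.93 at DR1, against 1.73, 1.46, 1.73 and 1.90 at SOL, a rise of 1.16 ± 0.13 (2.23-fold, adjusted p = 2.46e-06). The other polluted sites read 2.11, 2.05, 1.87 and 1.82 at PS, 1.19, 1.31, 1.34 and 1.23 at DR4 and 1.46, 1.25 and 1.32 at DR6. The DR1 arrays lay above all others, and the DR4 arrays lay below all SOL arrays. The differences from SOL were 0.26 ± 0.13 at PS (adjusted p = 0.156), −0.44 ± 0.13 at DR4 (adjusted p = 0.0104) and −0.36 ± 0.14 at DR6 (adjusted p = 0.0513). Normexp correction with quantile scaling gave 0.93 at DR1, under the 2-fold limit.

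Nr4a1, an orphan nuclear receptor that acts on glucose and lipid genes in liver, showed the largest rises at DR1 and DR4 among the 10 genes. Its level was 4.51, 4.64, 4.54 and 4.48 at DR1, 4.02, 3.93, 3.96 and 4.06 at DR4 and 4.68, 4.59 and 4.50 at DR6, against 1.46, 1.35, 1.21 and 1.23 at SOL. At PS it was 0.71, 0.70, 0.66 and 0.73, below every SOL array. The rises over SOL were 3.23 ± 0.062 at DR1 (9.39-fold, adjusted p = 9.90e-16), 2.68 ± 0.062 at DR4 (6.41-fold, adjusted p = 2.69e-15) and 3.28 ± 0.067 at DR6 (9.72-fold, adjusted p = 1.14e-15). At PS the difference was −0.61 ± 0.062 (adjusted p = 9.46e-07), under the 2-fold limit. DR6 and DR1 did not differ beyond their spread (adjusted p = 0.546), and DR4 lay below both.

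Myc, which drives cell growth and ribosome production, had its highest levels at DR4 and DR6. The brightest Myc probe read 2.06, 2.06, 2.05 and 2.07 at DR4, 1.94, 1.85 and 1.88 at DR6 and 1.11, 1.22, 1.27 and 1.34 at DR1, against −0.48, −0.46, −0.31 and −0.36 at SOL. At PS it read −0.10, −0.20, −0.16 and −0.18. On this probe no 2 sites overlapped. Myc rose by 2.47 ± 0.055 at DR4 (5.53-fold, adjusted p = 1.98e-15), by 2.29 ± 0.059 at DR6 (adjusted p = 2.73e-14) and by 1.64 ± 0.055 at DR1 (adjusted p = 7.22e-13), and the PS difference was 0.24 ± 0.055 (adjusted p = 0.00258). Normexp correction gave 1.70 at DR4. The difference of DR4 from DR6 was 0.17 on this probe and −0.10 with normexp correction, so which of them was highest depends on the processing, and also on the probe as given below.

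Ier2, a small nuclear protein induced early by growth factors, had the narrowest range after Junb. It read 2.26, 2.26, 2.13 and 2.19 at DR1, 2.04, 2.09, 2.0 and 2.0 at DR4, 1.67, 1.44 and 1.69 at DR6 and 1.33, 1.34, 1.32 and 1.35 at PS, against 1.62, 1.44, 1.25 and 1.37 at SOL. The DR1 and DR4 arrays lay above all SOL arrays, by 0.79 ± 0.072 (adjusted p = 1.65e-07) and 0.61 ± 0.072 (adjusted p = 1.71e-06), both under the 2-fold limit. DR6 and SOL did not differ beyond their spread, nor did SOL and PS, while PS lay below DR6 by −0.27 ± 0.078 (adjusted p = 0.0114). These values come from the brighter Ier2 probe. The genome position the array files give for it spans 35 bases, fewer than the 60 of the probe. The other, dim Ier2 probe stood at −0.53 ± 0.32 at DR1 and −0.21 ± 0.32 at DR4 against SOL, with no call.

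The feedback genes divided. Dusp1, the MAP kinase phosphatase, read 3.62, 3.53, 3.62 and 3.64 at DR4, 3.08, 3.14 and 3.11 at DR6 and 2.71, 2.82, 2.88 and 2.89 at DR1, against 1.55, 1.55, 1.55 and 1.66 at SOL. At PS it read 1.17, 1.13, 1.06 and 1.12. No 2 sites overlapped. Dusp1 rose by 2.03 ± 0.051 at DR4 (4.07-fold, adjusted p = 5.77e-15), by 1.53 ± 0.055 at DR6 (adjusted p = 1.74e-12) and by 1.25 ± 0.051 at DR1 (adjusted p = 8.93e-12), and the PS difference was −0.45 ± 0.051 (adjusted p = 2.94e-06), under the 2-fold limit. Normexp correction gave 1.44 at DR4.

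Zfp36, the decay factor also called tristetraprolin, was called at no site against SOL through its brighter probe. That probe read 3.58, 3.48 and 3.41 at DR6, 3.19, 3.46, 3.24 and 3.32 at DR1, 2.81, 2.59, 1.82 and 2.54 at DR4 and 2.51, 2.53, 2.43 and 2.40 at PS, against 2.76, 2.55, 2.40 and 2.30 at SOL. The DR6 and DR1 arrays lay above all others, and PS, DR4 and SOL overlapped. The difference from SOL was 0.99 ± 0.17 at DR6 (adjusted p = 0.000158), just under the 2-fold limit, and 0.80 ± 0.16 at DR1 (adjusted p = 0.000456). The DR6 value passed the limit without SOL replicate 1 (1.08), without SOL replicate 2 (1.01) and without DR6 replicate 3 (1.03).

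Across the 5 sites, by the brightest probe of each gene, the range of site means was 4.38 on the log2 scale for Atf3 (20.8-fold), 3.89 for Nr4a1 (14.8-fold), 2.55 for Fos, 2.48 for Dusp1, 2.47 for Myc, 2.0 for Jun, 1.60 for Egr1, 1.05 for Zfp36, 0.87 for Ier2 and 0.78 for Junb. A range of at least 1 was found in 8 of the 10 genes and in 25.0% of all genes, and the median range was 2.23 against 0.68. The highest site was DR6 for 5 genes (Jun, Junb, Nr4a1, Atf3 and Zfp36), DR1 for 3 (Fos, Egr1 and Ier2) and DR4 for 2 (Myc and Dusp1). Of all genes, 22.0% were highest at DR6, 20.4% at DR1, 19.2% at DR4, 18.9% at PS and 19.5% at SOL. Some of these places lay within the spread. DR6 over DR4 for Junb had a limma adjusted p of 0.934, and DR6 over DR1 had 0.546 for Nr4a1 and 0.360 for Zfp36. The lowest was PS for 5, SOL for 3 and DR4 for 2, and none of the 10 was highest at PS or SOL. Of all genes, 17.6% were lowest at PS, 18.7% at SOL and 25.8% at DR4. PS and DR4, the lowest sites for Zfp36, did not differ beyond their spread (adjusted p = 0.897). The other Zfp36 probe put DR4 above SOL, by 0.44 ± 0.13. Over the 5 site means, Fos correlated with Nr4a1 at r = 0.97 and Myc with Junb at 0.99 and with Dusp1 at 0.97, while Egr1 correlated with Jun at −0.68 and with Nr4a1 at 0.03. These correlations describe 5 pools that each also differ in slide.

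The stream sites differed from each other mainly in Jun, Atf3 and Egr1. DR1 against DR6 had Egr1 higher by 1.52 ± 0.14 (adjusted p = 2.95e-07), where 3.26% of all genes were higher, and Jun and Atf3 lower, by −1.94 ± 0.070 (adjusted p = 3.54e-12) and −2.81 ± 0.087 (adjusted p = 5.21e-13), where 4.24% of all genes were lower. DR4 against DR6 had 3 of 10 genes lower, against 3.78% of all genes: Jun by −1.23 ± 0.070 (adjusted p = 5.41e-10), Atf3 by −2.50 ± 0.087 (adjusted p = 7.40e-13) and Zfp36 by −1.05 ± 0.17 (adjusted p = 8.26e-05). With the brighter probe the Zfp36 call rests on DR4 replicate 3, without which the value was −0.84. The other Zfp36 probe was also called for DR4 against DR6, at −1.02 ± 0.14 (adjusted p = 2.30e-05). DR1 against DR4 had 1 gene higher, Egr1, by 1.60 ± 0.13 (adjusted p = 6.95e-08), against 3.05% of all genes. Fos, Nr4a1, Dusp1 and, by its brightest probe, Myc were called in none of these 3 comparisons. The mean of all Myc probes gave a called −1.01 for DR1 against DR6 (adjusted p = 2.66e-09).

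Between 5 and 7 of the 10 genes were lower at the phosphogypsum stacks than at each stream site. PS against DR1 had 5 of 10 genes lower (Fos, Nr4a1, Atf3, Myc and Dusp1), against 3.72% of all genes, and PS against DR4 had the same 5, against 4.64%. PS against DR6 had 7 of 10 lower (those 5 with Jun and Zfp36), against 4.79%. Atf3 differed by −4.38 ± 0.087 between PS and DR6 (20.8-fold, adjusted p = 5.45e-16) and Nr4a1 by −3.89 ± 0.067 (14.8-fold, adjusted p = 7.38e-17). Zfp36 differed by −1.02 ± 0.17 there with its brighter probe (adjusted p = 0.00012), and by −0.98 without DR6 replicate 1. Its other probe gave −1.34 ± 0.14 there (adjusted p = 1.27e-06). Junb was not called there by its brighter probe. Its other probe was called, at −1.24 ± 0.071 (adjusted p = 5.49e-10), as was the mean of its probes, at −1.01. Egr1 stood at −0.90 ± 0.13 between PS and DR1 (adjusted p = 3.32e-05), and at −1.07 without DR1 replicate 2. It lay the other way against DR4, 0.69 ± 0.13 (adjusted p = 0.000321), and against DR6, 0.62 ± 0.14 (adjusted p = 0.00244). Jun differed by −0.07 between PS and DR1, and Zfp36 by 0.03 between PS and DR4. With normexp correction Atf3 differed by −3.62 between PS and DR6. These comparisons share the PS arrays, and none of the 10 genes was higher at PS by the 2-fold limit.

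With the 5 pools as units, polluted sites against SOL, the spread between pools was large against the difference. Fos differed by 1.66 ± 0.80 (unadjusted p = 0.0809), Myc by 1.66 ± 0.80 (unadjusted p = 0.0813) and Nr4a1 by 2.15 ± 1.44 (unadjusted p = 0.183), and limma's adjusted p was 0.998 for each of the 10 genes. This fit called 0 of 16346 genes (0%), 665 genes had an unadjusted p under 0.05, and 0 of them were among the 10. It assumes that the lone SOL pool varies like the polluted pools, and it holds PS together with the stream sites.

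Among the 10 genes, Junb, Myc, Ier2 and Zfp36 have more than 1 probe, and the probes did not always give the same call. The Myc probe 591 bases upstream of the brightest one stood at 0.42 ± 0.10 at DR1 (adjusted p = 0.00246), 1.61 ± 0.10 at DR4 and 2.15 ± 0.11 at DR6 against SOL, where the brightest gave 1.64, 2.47 and 2.29. The other Myc probe, 99 bases upstream, gave 1.59, 2.27 and 2.25. For PS against SOL it gave 0.08 (adjusted p = 0.480), and the probe 591 bases upstream gave −0.12 (adjusted p = 0.381). Neither bore out the small PS difference of the brightest probe. The far upstream probe was called for DR1 against DR6 (−1.73) and for DR1 against DR4 (−1.19). Its DR4 level lay below DR6 by −0.54 ± 0.11 (adjusted p = 0.000727), and the probe 99 bases upstream gave 0.02 there (adjusted p = 0.868). The brightest Myc probe exceeded the far upstream one by 3.40 ± 0.099 on the DR1 arrays, 3.04 ± 0.055 at DR4, 2.32 ± 0.096 at DR6 and 2.54 ± 0.10 at PS, against 2.18 ± 0.33 at SOL (SD of the arrays). The gap between Myc probes therefore was widest at DR1, and its cause was not tested. The far upstream probe is the dimmest of the Myc probes and has 1 spot per array. Its processed signal ran from 20.8 to 109.7, against 60.9 to 912.5 for the 10 copies of the brightest.

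The other probe of Junb, which shares 22 bases with the brighter one, gave a called rise at DR6, 1.35 ± 0.071 (adjusted p = 2.35e-10), and 0.75 ± 0.066 at DR4. With it DR1 lay below DR6 by −0.44 ± 0.071 (adjusted p = 7.62e-05). DR4 lay below DR6 by −0.59 ± 0.071 (adjusted p = 4.31e-06), and both differences were under the 2-fold limit. The other probe of Zfp36, 192 bases away, gave a called rise at DR6 of 1.46 ± 0.14 (adjusted p = 4.62e-07) and 0.44 ± 0.13 at DR4. The other probe of Ier2 was dim, well above background on 15 of 19 arrays, and stood below SOL at all 4 sites with no call.

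**Figure D3:**
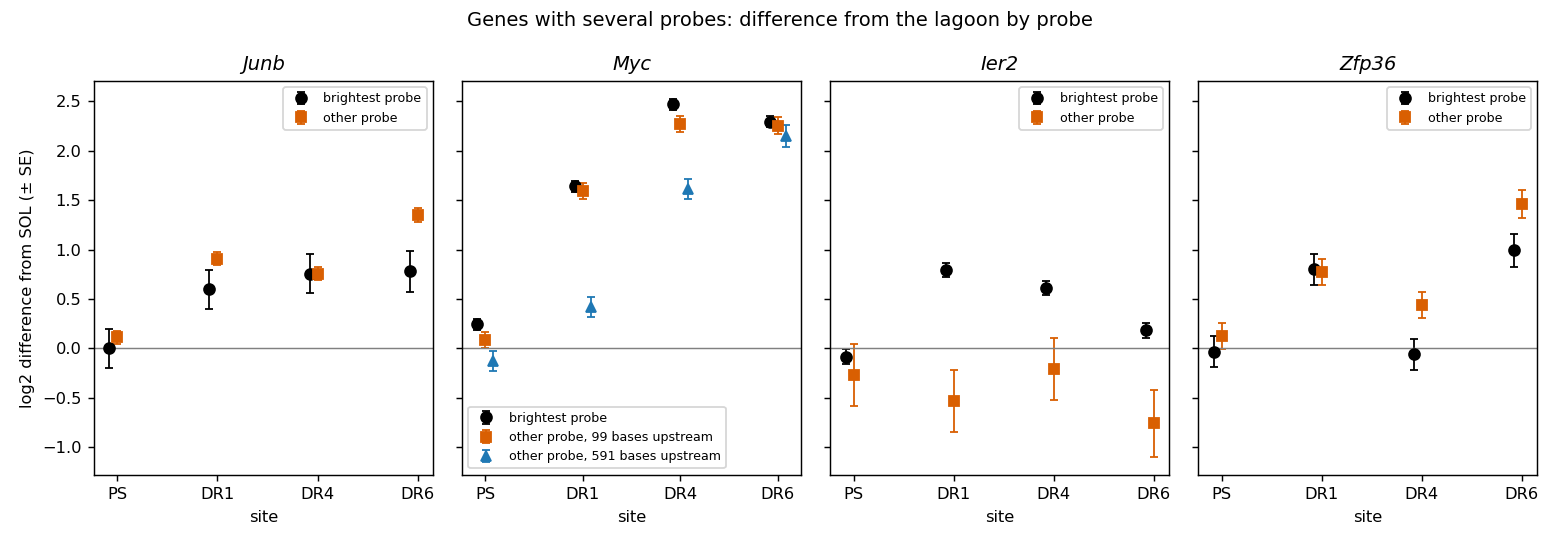
Difference from SOL at PS, DR1, DR4 and DR6 (x axis) for each probe of Junb, Myc, Ier2 and Zfp36 (y axis, log2 difference with its SE). The Myc probe 591 bases upstream read 0.42 at DR1, where the other Myc probes read 1.64 and 1.59.

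Markers of cell types that moved with the sites are set beside these results. Of all genes, 16346 tested at PS and 16345 at each stream site, 357 were called lower than SOL at PS. At DR1, DR4 and DR6 417, 834 and 373 were lower. Higher calls numbered 365 at PS, 577 at DR1, 888 at DR4 and 763 at DR6. The summed level of macrophage markers (the sum over 8 genes of the level on a linear scale) ran from 74.3 to 81.2 at PS, 69.6 to 78.5 at DR1, 34.9 to 40.5 at DR4 and 36.4 to 39.2 at DR6, against 97.8 to 117.1 at SOL, and 1, 1, 3 and 1 of the 8 were called lower. Erythroid markers, 5 measured, summed to 757 to 861 at PS, 379 to 417 at DR1, 306 to 308 at DR4 and 359 to 375 at DR6, against 754 to 781 at SOL, and 0, 1, 5 and 4 were lower. Of 8 measured exocrine pancreas markers, 8 were lower at PS, 3 at DR1, 8 at DR4 and 0 at DR6, with sums of 165 to 170 at PS, 265 to 389 at DR1, 54.9 to 94.8 at DR4 and 820 to 862 at DR6, against 712 to 755 at SOL. B and plasma cell markers were higher in 3 of 5 at PS, 2 at DR1, 0 at DR4 and 1 at DR6. Hepatocyte markers, which check the labelled tissue, had 0 of 7 called at any site and summed to 1282 to 2104 at the polluted sites, against 1736 to 2320 at SOL. Neutrophil and endothelial markers also had no call, and T and NK cell markers had 1 higher at PS and 1 at DR6. Of the stellate cell markers 3 were higher at DR1 and 2 at DR6, and of the cholangiocyte markers 1 at DR4. The part of these cells in the levels of the early genes was not tested.

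Of 32 other early response genes, 11 were higher at DR1, 13 at DR4 and 16 at DR6, against 3.53%, 5.43% and 4.67% of all genes, 0 were higher at PS, and the only lower call was that of Irf1 at DR6, named here after its value was seen. Their median difference from SOL was 0.63 at DR1, 0.81 at DR4, 0.91 at DR6 and 0.02 at PS. Sgk, a kinase induced by glucocorticoids and serum, stood above SOL by 3.00 ± 0.096 at DR1, 3.63 ± 0.079 at DR4 and 3.22 ± 0.085 at DR6. At PS it stood at −0.03. Btg2, an antiproliferative factor, rose by 1.40, 1.89 and 3.65 at DR1, DR4 and DR6, with its highest value at DR6 as for Atf3. Plk3, a polo-like kinase, rose by 1.28, 2.03 and 2.71, and Axud1 by 1.38, 1.95 and 2.77. Tiparp, a poly-ADP-ribose polymerase induced through the aryl hydrocarbon receptor, rose by 1.93, 2.19 and 2.61. Gadd45g, a stress-response gene, rose by 1.81 at DR4 and 2.04 at DR6 and stood at 0.94 at DR1.

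Among relatives of the members, Nr4a2 rose at the stream sites by 1.87 ± 0.11 at DR1, 2.87 ± 0.11 at DR4 and 2.50 ± 0.12 at DR6, and stood at −0.93 ± 0.11 at PS. The other 3 measured genes of the EGR and NR4A list, Egr2, Nab1 and Nab2, were called at no site. Of 7 measured AP-1 and small MAF genes, 0 were higher at PS and at DR1, 2 at DR4 and 3 at DR6. Of all genes, 3.53% were called higher at DR1, 5.43% at DR4 and 4.67% at DR6. Maff rose by 1.32 at DR4 and 2.14 at DR6, Fosl2 by 1.98 and 2.13, and Mafk by 1.05 at DR6. Fosb, a close relative of Fos, was dim and stood between −0.15 and 0.58 with no call.

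Of 12 measured MAP kinase phosphatases and other feedback inhibitors, Dusp8 was higher at DR4 (1.57 ± 0.19) and DR6 (1.75 ± 0.21). It was lower at PS (−1.53 ± 0.19), where it was well above background on 2 of 4 arrays. Dusp2 was higher at DR4 (1.10 ± 0.12), and Dusp6 was lower at PS (−1.14 ± 0.060) and DR4 (−1.01 ± 0.060). Of all genes, 5.43% were called higher at DR4 and 4.67% at DR6. Of 26 measured upstream kinases and serum response factors, 1 was higher at DR1, 2 at DR4 and 1 at DR6, shares near those of all genes. The receptor gene Egfr rose at all 3 stream sites, by 1.39 ± 0.044 at DR1, 2.23 ± 0.044 at DR4 and 1.63 ± 0.048 at DR6. At PS it stood at 0.29. Crem, a cAMP-responsive factor, rose at DR4 by 1.22 ± 0.074. Of 10 measured genes of the ZFP36 family and its decay partners, Dcp2 and Elavl1 were higher at DR4, with 1.03 ± 0.078 and 1.03 ± 0.40. The SOL arrays of Elavl1 had an SD of 1.17. Of 9 ATF family genes and partners 1, Trib3, was higher, at PS, by 1.08 ± 0.070, where 365 of 16346 genes were called higher.

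Of 21 measured MYC target genes, 0 were higher and 1 lower at PS and at DR1. At DR4 3 were higher and 1 lower, and at DR6 0 were called. Of all genes, 5.43% were called higher at DR4 and 834 of 16345 lower. Lower calls were made for 357 of 16346 genes at PS and 417 of 16345 at DR1. Their median difference from SOL was 0.03 at PS, −0.11 at DR1, 0.39 at DR4 and 0.04 at DR6. The lower gene at PS and at DR1 was Rrs1, which acts in ribosome assembly, at −1.69 ± 0.18 and −1.93 ± 0.18, and it was well above background on 3 and 2 of the 4 arrays there. The nucleolar genes Nol5a and Ncl stood at 1.45 ± 0.18 and 1.30 ± 0.45 at DR4, and the SOL arrays of Ncl had an SD of 1.30. Cdkn1a, an inhibitor of cyclin-dependent kinases that MYC is known to repress, is counted among the higher genes at DR4, by 1.45 ± 0.059. The cyclin gene Ccnd2 was lower there by −1.19 ± 0.093. The MYC partners and antagonists had 2 of 11 lower at DR4, Mycl1 and Mlxipl, by −1.28 ± 0.083 and −1.25 ± 0.095. Mycn was well above background on the 4 DR1 arrays and on no array of other sites, at least 1.53-fold higher at DR1 than at SOL. It passed the filter on dim probes through DR1 alone, so this is a description.

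**Figure D4:**
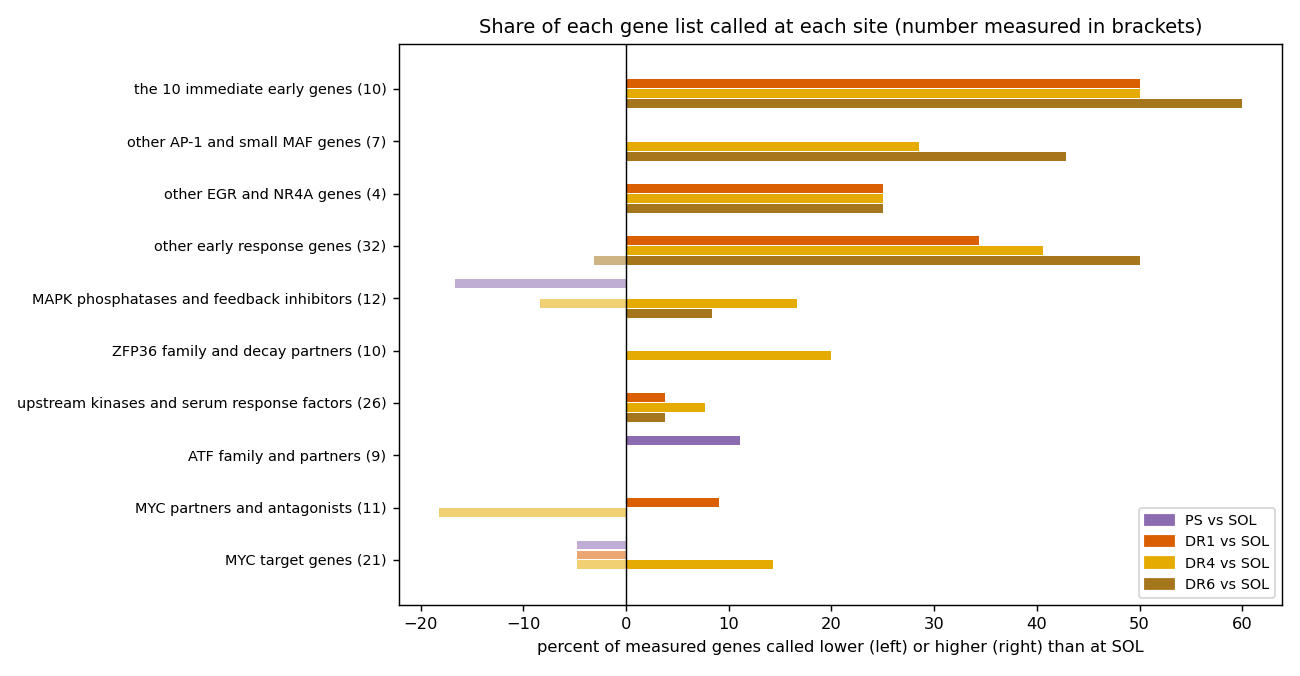
Percent of the measured genes of each list called higher (right) or lower (left) at PS, DR1, DR4 and DR6 against SOL (x axis), with the number measured in brackets. The 10 early genes and the 32 other early response genes have the longest bars at the stream sites, with no bar at PS.

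The genes whose level was most like the mean of the 10 were ranked by Pearson r over the 19 arrays, among 3178 genes with a range of site means of at least 1. Elovl3, an elongase of very long chain fatty acids, came first with r = 0.985. Its site means were 2.01 at PS, 4.85 at DR1, 4.73 at DR4 and 5.41 at DR6, against 1.90 at SOL. Tiparp had r = 0.971, 2200001I15Rik 0.967, Ccnl1 0.963, Arfl4 0.962, Klf4 0.962, Ell2 0.962 and Lum 0.960. Tiparp and Klf4 are on the list of other early response genes, and Lum is on that of stellate cell markers. The arrays of a site share 1 pool, so these values rest on 5 pools.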

How the data were processed

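Liver RNA pools of 5 sites were measured on 19 arrays. Per the file headers, the deposited scanner files hold linear intensity per spot, which the authors made with Agilent Feature Extraction (version 9.5.3.1 in the submitters' processing notes), already background-subtracted. The deposited table of the whole series also holds intensity: the same processed signal rounded, with a largest difference of 0.497%. Gene names came from an array of SOL, since 5.84% of gene spots carry another name on the DR1 arrays. The headers of the DR1 arrays alone name the mm7 genome build, and those of all other arrays mm8. Whether the DR1 slide was handled otherwise in ways that touch its levels was not tested.

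From these values log2 of the processed signal minus the 75th percentile of each array was computed. Control spots (1639) were left out, outlier spots set missing and spots of a probe averaged. Probes were kept if at least 3 arrays of a site had them well above background (23458), and the brightest represented its gene. Linear models with a mean per site were fitted with limma 3.58.1 in R 4.3.3, for 10 site comparisons, two-sided, and p-values were adjusted by Benjamini-Hochberg over all genes. The fit was tested on simulated data. The members and lists were chosen with earlier results of these data known. The rule for named genes was all 10 members, up to 6 of each other list with the widest range of site means, and the 8 most alike. Between 52.0% and 61.5% of spots were well above background, and the 75th percentile ran from 99.5 to 285.2. The number of arrays limits the precision. Alternatives covered background correction, scaling, filter, probe choice, outlier spots, the deposited table, the replicate number as a block and each array left out.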

Additional observations from a re-analysis of the deposited data

Results flagged for a closer look

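In 4 of 39 groups of 4 arrays, 1 array stood apart from the other arrays of its site by Dixon's test. Chance flags about 1 in 20 groups. Jun on DR1 array 2 was at −0.6992 (gap over range 0.917), and Junb on the same array was at 5.9846 (0.835). Jun on SOL array 1 was at 0.1001 (0.897). Dusp1 on SOL array 4 was at 1.6566 (0.962). Leaving out any of these arrays changed no call of Jun, Junb or Dusp1.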

How the results depend on the processing

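Of 2800 recomputed differences of the 10 genes, 2767 kept their side of the limits, 20 fell below the limits and 13 passed them. The sign changed in 36, all with a size of at most 0.27 in the reported fit, and in 0 of the called differences. The normexp background correction called fewer genes: 154 for PS against SOL, 259 for DR1 against SOL, 766 for DR4 against SOL, 231 for DR6 against SOL, 276 for DR1 against DR6, 303 for DR4 against DR6, 510 for DR1 against DR4, 250 for PS against DR1, 526 for PS against DR4 and 262 for PS against DR6. Of the 10 genes it called 3 for DR4 against SOL and 2 for DR1 against DR4. Normexp with quantile scaling called, in the same order of comparisons, 197, 246, 600, 275, 304, 244, 198, 229, 411 and 304 genes. Of the 10 genes it called 3 for DR4 against SOL and 1 for DR4 against DR6. Both normexp settings add an offset of 50 to every value, which by arithmetic shrinks fold differences of dim spots. The parts of the offset and of the background correction in the lower counts were not tested. Without these corrections the counts were 722, 994, 1722, 1136, 1226, 1007, 841, 1039, 1464 and 1194. Under normexp, Fos lost its calls for PS against DR4 (−0.77) and DR6 (−0.74), as it did against SOL, Atf3 its call for PS against DR1 (−0.93) and Jun its call for DR4 against DR6 (−0.97), while Zfp36 gained a call against SOL at DR1 (1.01) and DR6 (1.03). Median scaling shifted all genes by 0.17 between PS and DR6, took the share of higher calls there to 52.6% from 34.4% (45.6% with quantile scaling) and ended the Zfp36 call (−0.85), and that for DR4 against DR6 (−0.95). It also moved that share for DR6 against SOL (55.8% from 67.2%), DR1 against DR6 (55.4% from 43.5%), DR4 against DR6 (49.2% from 38.7%) and PS against DR1 (51.6% from 41.5%). Normexp correction moved it to 38.3% for PS, 68.7% for DR1 and 25.7% for DR4 against SOL (from 50.6%, 58.05% and 51.6%), 17.5% for DR4 against DR6, 87.8% for DR1 against DR4 (from 59.2%), 23.2% for PS against DR1, 70.0% for PS against DR4 (from 48.2%) and 23.3% for PS against DR6. Leaving out 1 array at a time gave 5 to 6 of the 10 genes for DR1 against SOL, 5 for DR4, 6 to 7 for DR6 and 0 for PS. Arrays of different sites with the same replicate number hold different pools and share the position on the slide. After site means were removed, 16 of 36 such pairs correlated above 0.1, up to 0.48. Differently numbered pairs were not computed, so an effect of slide position was not tested this way. With the replicate block the counts of the 10 genes were 5 at DR1, 5 at DR4, 6 at DR6 and 0 at PS against SOL, and no call changed. The dim Fos, Ier2 (second probe), Myc (far upstream probe) and Mycn spots are limited by signal over background.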
